A study of Arabidopsis thaliana with 24 samples.

Results

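Roots of Arabidopsis thaliana seedlings that express CLE41 constitutively (41-OX) were compared with roots of the wild type (WT, accession Col-0). The comparison used the 4 root libraries of each, as labelled, so 8 of the 24 libraries of the series. All seedlings were 7 days old, and total RNA of whole roots was sequenced. The series also holds shoots of both genotypes, and roots and shoots of pxy, the pxy-5 mutant of the receptor gene PXY. Its title states the aim of finding regulators of vascular proliferation. The promoter that drives CLE41 and the number of transgenic lines behind the 41-OX label are not given in the sources used here. The design text names 4 biological replicates per group with technical replicates that are not held apart in the counts, and whether roots of several seedlings were pooled is not stated, so p-values measure the spread between these libraries.

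CLE41 encodes a precursor from which the short peptide TDIF is cut and secreted. In the vascular bundle TDIF comes from the phloem side and binds the receptor kinase PXY (also called TDR) on the dividing procambium or cambium cells. Receptor activity keeps these cells from turning into xylem and, through the homeobox gene WOX4, keeps them dividing. Constitutive CLE41 is known for extra vascular cells and less ordered vascular tissue. The gene has 1 exon and lies at TAIR10.1 chr3:9046293-9047463. The codons of the secreted peptide were read from the RefSeq genome on the plus strand at TAIR10.1 chr3:9047040-9047075, at codons 88 to 99 of the reading frame. Only RNA was counted here, and the peptide was not measured.
CLE41 TDIF codons: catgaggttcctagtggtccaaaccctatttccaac

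The WT root libraries held 9496863 to 11631762 counts over loci and the 41-OX root libraries 8387529 to 12226066. Below, levels are given as CPM, that is counts per library total after TMM scaling, and changes are log2 values of 41-OX over WT with their standard error (SE). Calls rest on edgeR's quasi-likelihood test, with p-values adjusted by Benjamini-Hochberg over every tested locus and called under 0.05. All levels are per library total and not per length, so they are compared between libraries and not between genes.

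1 library stood apart by its RNA. In 41-OX root replicate 4, loci specific to shoots stood at a median of 11.4% of their mean level in shoots. They stood at 0.474% to 2.01% in the other 3 41-OX roots and at 0.479% to 2.07% in the WT roots. The 26 listed photosynthetic genes together took 0.706% of all counts in that library, against 0.0604% to 0.154% in the other 41-OX roots and 0.0563% to 0.164% in WT roots. Their median log2 change was 1.58 with replicate 4 and -0.03 without it, and in neither test did a member pass. Every result below was therefore also computed without this library.

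**Figure D1:**
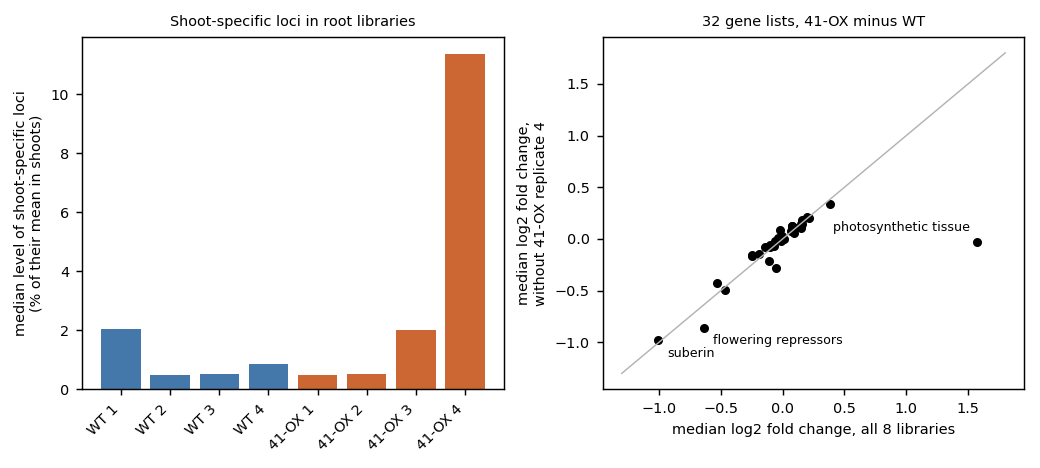
Left, the median level of the 385 shoot-specific loci in each root library, as a percentage of their mean in shoots. Right, the median log2 change of each of 32 gene lists with all 8 libraries (x axis) and without 41-OX replicate 4 (y axis), where the line marks equal values. Replicate 4 of 41-OX stands at 11.4% and every other bar at or under 2.07%, and the photosynthetic list moves from 1.58 to -0.03 while the suberin list stays at about -1.

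More loci fell than rose in 41-OX roots, and the falls were larger. Of 19989 loci tested, 859 rose (4.3%) and 1523 fell (7.62%), so 11.9% were called. Among those that rose the median log2 change was 0.40, and among those that fell it was -0.59. A total of 107 loci rose and 331 fell by more than 1 on the log2 scale. Without 41-OX replicate 4, 1494 of 20160 loci rose (7.41%) and 2045 fell (10.1%), 17.6% in all. Of the 2382 first calls 2297 were also called without that library, all with the same sign, so its removal added calls more than it took them away. The groups did not overlap at 2235 of the 2382 called loci and at 3717 of all 19989 tested loci. The test itself favours loci whose groups lie apart, so the first count is no separate support for the calls. The median change of all tested loci was 0.01. Each list count below is to be read against these shares, 4.3% rising and 7.62% falling, or 7.41% and 10.1% without 41-OX replicate 4. Lists and members were chosen with earlier results of these data known, so a higher share in a list is no separate support.

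The ligand gene was higher in every 41-OX root, its receptor gene did not pass the test, and the best known target of the receptor was lower. CLE41 stood at 11.4, 10.4, 11.2 and 9.297 CPM in the 4 WT and 35.5, 34.4, 36.8 and 28.6 CPM in the 4 41-OX libraries. Each 41-OX root lay above each WT root, and the change held whichever library was left out (log2 change 1.68, SE 0.11, adjusted p = 2.12e-06). PXY, the receptor (TAIR10.1 chr5:24724337-24728244, 2 exons), stood at 23.7, 20.7, 26.3 and 16.4 CPM in the 4 WT and 16.3, 17.5, 19.4 and 14.5 CPM in the 4 41-OX libraries. The groups overlapped and PXY did not pass (log2 change -0.37, SE 0.14, adjusted p = 0.116), and it passed only without WT replicate 4 (log2 change -0.48, adjusted p = 0.0415). WOX4, the homeobox gene through which PXY promotes cambium division (TAIR10.1 chr1:17236524-17238185, 2 exons), stood at 2.59, 1.701, 2.74 and 1.96 CPM in the 4 WT and 1.14, 0.744, 1.21 and 1.13 CPM in the 4 41-OX libraries. Each 41-OX root lay below each WT root (log2 change -1.07, SE 0.27, adjusted p = 0.0193). WOX4 is counted at few reads per library, and the call was lost without WT replicate 1 (adjusted p = 0.0627), WT replicate 3 (0.0752) or 41-OX replicate 2 (0.0594). Without 41-OX replicate 4 it was kept (log2 change -1.09, adjusted p = 0.0194).

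**Figure D2:**
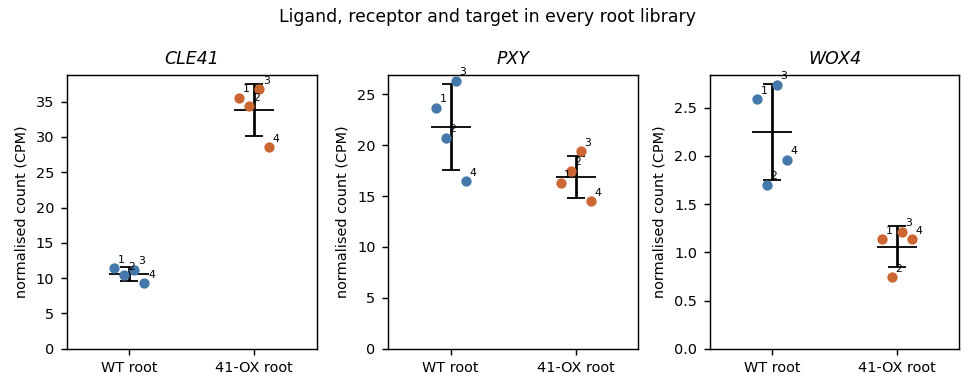
TMM-scaled counts (CPM) of CLE41, PXY and WOX4 in each root library, numbered by replicate, with the group mean and SD (n = 4) in black. CLE41 is higher and WOX4 lower in all 4 41-OX roots, and the PXY values of the groups overlap.

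With all 8 libraries no other tested gene of the pathway list passed. The list held 20 genes, of which 17 were tested, 1 rose (CLE41), 1 fell (WOX4) and 15 did not pass, with a median log2 change of 0.01. CLE44, which encodes the same peptide, stood at 1.38 to 3.16 CPM in WT and 1.21 to 2.605 CPM in 41-OX (log2 change -0.39, SE 0.30, adjusted p = 0.444). WOX14, a relative of WOX4, had a log2 change of 0.28 and the PXY-like receptor genes PXL1 and PXL2 had 0.21 and -0.07. PXL1 passed without 41-OX replicate 4 (log2 change 0.29, adjusted p = 0.0172), so that 2 rose and 1 fell without 41-OX replicate 4. The kinase genes BIN2, BIL1 and BIL2 and the transcription factor genes BES1 and BZR1, through which PXY acts on xylem formation, lay between -0.07 and 0.09. The vascular transcription factor genes TMO6, LBD4 and HB8 had -0.12, 0.12 and 0.12.

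Of 23 tested regulators of vascular proliferation, 1 rose, 2 fell and 20 did not pass (median log2 change -0.01). These counts are near the 4.3% and 7.62% of all loci that rose and fell. Of the 23 regulators, 3 rose and 2 fell without 41-OX replicate 4, with T5L1 (0.28) and PHB (0.22) as the further rises. PLT3, an AP2-type regulator of root meristems, rose from 32.2 to 40.4 CPM in WT to 43.8 to 53.6 CPM in 41-OX (log2 change 0.35, SE 0.09). ANT, an AP2-type factor of cambium and organ growth, fell from 6.91 to 12.5 CPM in WT to 5.44 to 6.904 CPM in 41-OX (log2 change -0.69, SE 0.20). RUL1, a receptor kinase gene of the cambium, fell from 46.2 to 51.5 CPM in WT to 23.9 to 39.8 CPM in 41-OX (log2 change -0.53, SE 0.13). The calls were lost for PLT3 without WT replicate 1 or 3 or 41-OX replicate 2 (adjusted p up to 0.0773), ANT without WT replicate 1 or 3 or 41-OX replicate 1, 2 or 3 (adjusted p up to 0.142) and RUL1 without WT replicate 1, 2 or 3 or 41-OX replicate 2 (adjusted p up to 0.0715). The D-type cyclin genes CYCD3;1, CYCD3;2 and CYCD3;3, which drive cambial divisions, had log2 changes of -0.17, 0.17 and 0.02 and did not pass.

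Most markers of xylem did not pass, and more of the called ones fell than rose. Of 34 tested genes of xylem and secondary walls 1 rose, 5 fell and 28 did not pass (median log2 change -0.04), against 4.3% and 7.62% of all loci that rose and fell, and 3 rose and 5 fell without 41-OX replicate 4. BFN1, a nuclease gene of dying xylem cells, stood at 52.6, 61.02, 55.9 and 59.2 CPM in the 4 WT and 46.6, 32.4, 39.5 and 40.01 CPM in the 4 41-OX libraries. The groups did not overlap (log2 change -0.52, SE 0.10, adjusted p = 0.00304). COBL4, a gene of secondary wall cellulose, fell from 35.4 to 41.9 CPM in WT to 26.8 to 32.3 CPM in 41-OX (log2 change -0.37, SE 0.08). Both calls held whichever library was left out. IRX9 (-0.33, SE 0.08), CTL2 (-0.25, SE 0.07) and the thermospermine synthase gene ACL5 (-0.28, SE 0.07) fell, and the protease gene XCP2 rose (0.20, SE 0.06). Their calls were lost for IRX9 without WT replicate 2 or 3 (adjusted p up to 0.059), CTL2 without WT replicate 1 or 3 or 41-OX replicate 2 or 3 (adjusted p up to 0.0952), ACL5 without WT replicate 1, 3 or 4 or 41-OX replicate 3 (adjusted p up to 0.0788) and XCP2 without any 1 of 7 libraries (adjusted p up to 0.158). The secondary wall cellulose synthase genes CESA4, CESA7 and CESA8 had -0.17, -0.01 and -0.21, and the vessel regulator genes VND6 and VND7 had 0.66 and 0.21, and none of these passed. Without 41-OX replicate 4 VND6 (0.70), XCP1 (0.23) and TED7 (0.33) passed and XCP2 did not. In whole roots fewer cells of a type and less RNA per cell cannot be told apart.

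Of the 15 lignin and phenylpropanoid enzyme genes 2 fell and 13 did not pass, against 7.62% of all loci that fell. Those that fell were FAH1 (log2 change -0.67, SE 0.15) and PAL2 (-0.35, SE 0.10). These calls were lost for FAH1 without WT replicate 3 or 41-OX replicate 2 (adjusted p up to 0.0548) and PAL2 without WT replicate 1, 2, 3 or 4 or 41-OX replicate 2 or 3 (adjusted p up to 0.115). Of 19 tested phloem genes 1 rose and 1 fell, against 4.3% and 7.62% of all loci. Without 41-OX replicate 4, 1 rose and 2 fell, against 7.41% and 10.1%. SWEET12, a sucrose exporter of phloem parenchyma, stood at 77.2, 65.4, 70.3 and 85.7 CPM in the 4 WT and 98.2, 103, 99.5 and 116 CPM in the 4 41-OX libraries. All 41-OX roots lay above all WT roots (log2 change 0.48, SE 0.09, adjusted p = 0.00277). The sulfate transporter gene SULTR2;1 was the member that fell, and is described with sulfur. The companion cell sucrose loader SUC2 (-0.01) and the phloem identity gene APL (-0.09) did not pass.

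Outside the vascular bundle, 1 of 19 root hair and epidermis genes fell, against 7.62% of all loci. It was the peroxidase gene RHS18 (log2 change -0.44, SE 0.10). Its call was lost without WT replicate 2 or 4 or 41-OX replicate 2 (adjusted p up to 0.0597). Among 11 genes of the endodermis and its Casparian strip 1 rose, against 4.3% of all loci, and 5 rose without 41-OX replicate 4, against 7.41%. The first was CASP5 (log2 change 0.34, SE 0.08, lost without WT replicate 3 at adjusted p = 0.0533). The endodermal regulator genes SCR and SHR had -0.09 and 0.22 and MYB36 had -0.16, all not passing, though SHR passed without 41-OX replicate 4 (0.31). Of 36 cell cycle genes 2 rose and 1 fell (median 0.10), against 4.3% and 7.62% of all loci. Without 41-OX replicate 4, 7 rose and 1 fell, against 7.41% and 10.1%. CYCD1;1, a D-type cyclin gene, fell from 64.4 to 73.1 CPM in WT to 49.98 to 58.1 CPM in 41-OX (log2 change -0.35, SE 0.07), which held whichever library was left out. CYCD6;1, a cyclin gene of formative divisions in the ground tissue, rose from 1.02 to 1.96 CPM in WT to 2.15 to 3.25 CPM in 41-OX (log2 change 0.91, SE 0.26) and MCM7, a replication licensing gene, rose by 0.27 (SE 0.08). Both calls were lost for CYCD6;1 without WT replicate 1, 2 or 3 or 41-OX replicate 1 or 2 (adjusted p up to 0.121) and MCM7 without WT replicate 1, 2, 3 or 4 or 41-OX replicate 2 or 3 (adjusted p up to 0.0969).

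The 4 lists with the lowest medians were those of suberin, flowering repressors, root terpenes and sulfur shortage. The highest median was that of the photosynthetic list, which rested on 41-OX replicate 4 as given above.

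**Figure D3:**
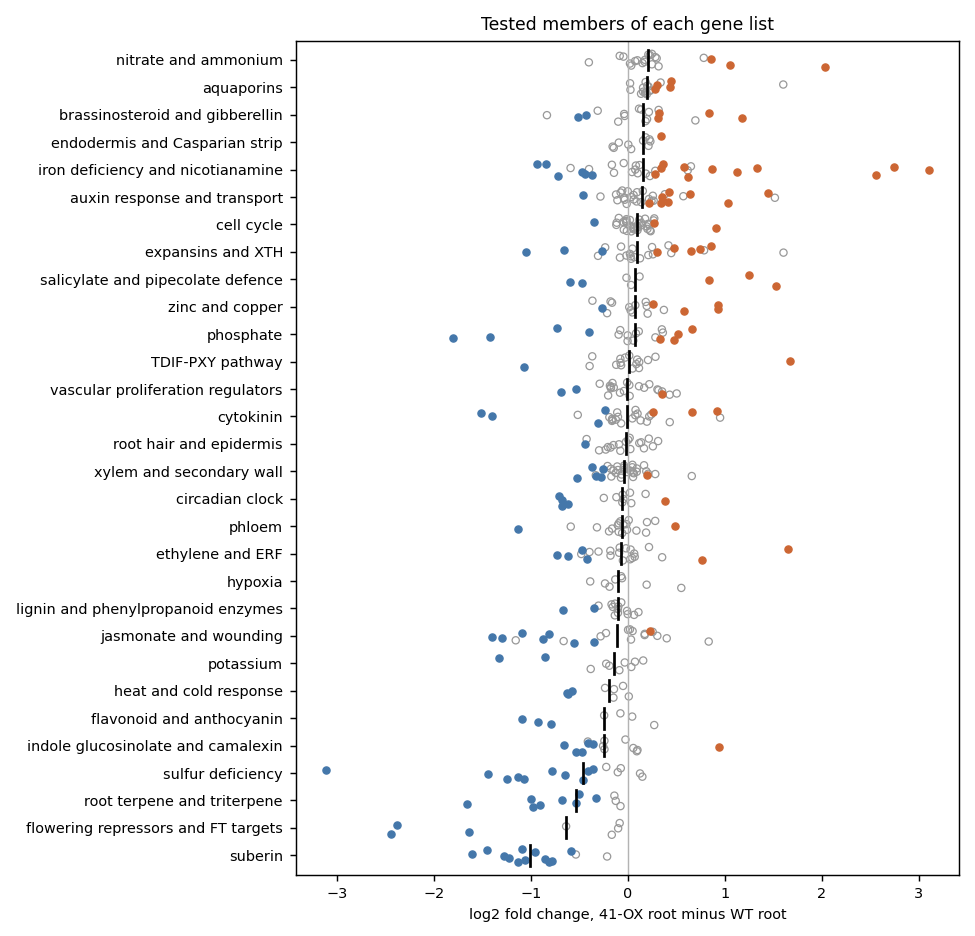
Log2 change (41-OX minus WT roots) of every tested member of 30 gene lists, one point per gene, ordered by the list's median (black bar). Filled orange points rose and filled blue points fell at adjusted p under 0.05, and open points did not pass. The suberin list lies wholly to the left of 0, the aquaporin list wholly to the right, and the iron list spreads to both sides.

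Suberin is the lipid polymer that seals the walls of older endodermis cells. Of 14 tested suberin genes 12 fell, none rose and 2 did not pass, against 7.62% of all loci that fell, and the median log2 change was -1.01. Without 41-OX replicate 4, 12 fell too, of which 11 were the same, with FAR1 in place of MYB41. FAR4, a fatty acyl reductase that makes the primary alcohols of suberin, stood at 95.9, 101, 113 and 96.4 CPM in the 4 WT and 45.04, 32.6, 38.2 and 31.5 CPM in the 4 41-OX libraries. All 41-OX roots held less than the lowest WT root (log2 change -1.46, SE 0.11, adjusted p = 3.25e-06). CYP86B1, which hydroxylates very long chain fatty acids, stood at 57.1, 64.95, 73.8 and 60.7 CPM in the 4 WT and 34.9, 31.6, 29.01 and 27.4 CPM in the 4 41-OX libraries, again with no overlap (log2 change -1.06, SE 0.10, adjusted p = 1.27e-05). GPAT5, the acyltransferase that joins the monomers to glycerol, stood at 49.3, 49.2, 54.7 and 49.5 CPM in the 4 WT and 35.8, 27.3, 27.1 and 21.8 CPM in the 4 41-OX libraries (log2 change -0.85, SE 0.12, adjusted p = 0.000499).

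The other members spanned the route from chain elongation to export. The elongase gene KCS2 had a log2 change of -1.13, SE 0.12. FAR5, another reductase gene, had -1.27, SE 0.12. CYP86A1, the fatty acid omega-hydroxylase, had -0.81, SE 0.14. The acyltransferase genes GPAT7 and ASFT, the latter adding ferulate, had -1.22, SE 0.19 and -0.58, SE 0.08. The transporter genes ABCG2, ABCG6 and ABCG20, needed for the suberin barrier, had -1.61, SE 0.27, -1.09, SE 0.18 and -0.78, SE 0.10. These calls held whichever library was left out. MYB41, a transcription factor gene that can switch on the suberin route, fell from 1.66 to 2.66 CPM in WT to 0.8397 to 1.46 CPM in 41-OX (log2 change -0.95, SE 0.28), and this call was lost without any 1 of 7 libraries (adjusted p up to 0.126), 41-OX replicate 4 among them (adjusted p = 0.0524). FAR1, another fatty acyl reductase gene, stood at 24.7, 11.5, 19.4 and 17.3 CPM in the 4 WT and 5.04, 6.45, 10.2 and 29.2 CPM in the 4 41-OX libraries. Its highest value was that of 41-OX replicate 4, and it did not pass with that library (-0.54, SE 0.60) but passed without it (log2 change -1.34, adjusted p = 0.0317). KCS20 (-0.21, SE 0.09) did not pass. Of 11 tested genes of the endodermis and its Casparian strip none fell, against 7.62% of all loci. So few genes at that share set no contrast with the suberin genes.

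Genes that plants turn on when sulfate is short were lower. Of 15 tested members 10 fell, none rose and 5 did not pass, against 7.62% of all loci that fell. The median log2 change was -0.46, and the counts were the same without 41-OX replicate 4. LSU1, a small protein induced by low sulfur (TAIR10.1 chr3:18374908-18375940, 2 exons), stood at 13.6, 10.4, 14.7 and 11.4 CPM in the 4 WT and 1.95, 0.6202, 0.933 and 2.15 CPM in the 4 41-OX libraries. The highest 41-OX root lay far below the lowest WT root (log2 change -3.11, SE 0.28, adjusted p = 2.05e-05). Its relative LSU2 stood at 12.9, 9.57, 11.6 and 11.3 CPM in the 4 WT and 4.39, 4.47, 3.64 and 4.19 CPM in the 4 41-OX libraries (log2 change -1.44, SE 0.14, adjusted p = 2.91e-05). SULTR4;2, which releases sulfate from the vacuole, stood at 30.4, 24.8, 35.1 and 28.7 CPM in the 4 WT and 12.9, 13.6, 13.6 and 10.1 CPM in the 4 41-OX libraries (log2 change -1.24, SE 0.13, adjusted p = 3.62e-05).

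APR1, which reduces activated sulfate, fell from 51.96 to 63.2 CPM in WT to 35.1 to 38.7 CPM in 41-OX (log2 change -0.65, SE 0.08). The other members that fell were SDI1, a repressor of glucosinolate synthesis under sulfur shortage (-0.78, SE 0.13), the glutathione-degrading enzyme gene GGCT2;1 (-1.07, SE 0.24), the vacuolar exporter gene SULTR4;1 (-0.36, SE 0.07), SHM7 (-0.41, SE 0.08) and AT1G04770 (-0.46, SE 0.08). SULTR2;1, a sulfate transporter gene of vascular cells, fell from 11.5 to 17.8 CPM in WT to 3.33 to 9.97 CPM in 41-OX. Its highest 41-OX value was replicate 4, its log2 change was -1.13 (adjusted p = 0.0272) with that library and -1.45 (adjusted p = 0.00017) without it, and the call was lost for SULTR2;1 without WT replicate 1, 2, 3 or 4 or 41-OX replicate 2 or 3 (adjusted p up to 0.087). The uptake transporter genes SULTR1;1 (-0.22) and SULTR1;2 (0.13), the reductase genes APR2 (0.15) and APR3 (-0.10) and the regulator gene SLIM1 (-0.07) did not pass.

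Enzyme genes of root terpenes were lower as well. Of 11 tested members 8 fell and 3 did not pass (median log2 change -0.53), against 7.62% of all loci that fell. The counts were the same without 41-OX replicate 4. The thalianol cluster on chromosome 5 makes a root triterpene, and its synthase gene THAS1 stood at 472, 593, 513 and 509 CPM in the 4 WT and 319, 298, 266 and 229 CPM in the 4 41-OX libraries. The groups did not overlap (log2 change -0.91, SE 0.10, adjusted p = 8.13e-05). The modifying enzyme genes THAH and THAD of the cluster had log2 changes of -0.68, SE 0.08 and -0.51, SE 0.11. The paired genes AT3G25820 and AT3G25830, which encode 1,8-cineole synthase, stood at 538 to 565 and 525 to 560.2 CPM in WT and 265 to 310.5 and 254 to 305 CPM in 41-OX. Their log2 changes were -0.98, SE 0.07 and -0.997, SE 0.07, and since the copies are nearly identical the split of reads between them is uncertain. TPS12, a terpene synthase gene, stood at 48.3, 32.5, 33.9 and 39.4 CPM in the 4 WT and 11.4, 10.5, 14.9 and 11.9 CPM in the 4 41-OX libraries (log2 change -1.66, SE 0.14, adjusted p = 1.04e-05). The marneral cluster genes MRN1 (-0.53, SE 0.14) and CYP71A16 (-0.33, SE 0.09) fell, and their calls were lost for MRN1 without WT replicate 1, 2, 3 or 4 or 41-OX replicate 2 or 3 (adjusted p up to 0.163) and CYP71A16 without WT replicate 2, 3 or 4 or 41-OX replicate 2 or 3 (adjusted p up to 0.0994).

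Other defence compounds went the same way in part. Among 14 indole glucosinolate and camalexin genes 5 fell and 1 rose, against 7.62% and 4.3% of all loci. The regulator gene MYB34 fell from 186 to 219 CPM in WT to 123 to 157 CPM in 41-OX (log2 change -0.53, SE 0.08), the hydroxylase gene CYP81F4 by -0.66 (SE 0.11), and BGLU23, the myrosinase of root ER bodies, from 2244 to 2481 CPM in WT to 1659 to 1882 CPM in 41-OX (log2 change -0.42, SE 0.08). MYB51 (-0.47, SE 0.12) and IGMT1 (-0.36, SE 0.08) fell and CYP81F2 rose (0.94, SE 0.24), and these 3 calls were lost for MYB51 without WT replicate 2 or 4 or 41-OX replicate 1 or 2 (adjusted p up to 0.076), IGMT1 without WT replicate 3 (adjusted p up to 0.0502) and CYP81F2 without WT replicate 2, 3 or 4 (adjusted p up to 0.078). Among 7 tested flavonoid genes 3 fell and 4 did not pass, against 7.62% of all loci that fell. FLS1, flavonol synthase, fell from 21.04 to 32.7 CPM in WT to 11.3 to 15.8 CPM in 41-OX (log2 change -1.09, SE 0.15), CHI had -0.93, SE 0.21 and CHS, the entry enzyme, had -0.79, SE 0.18. The call was lost for CHS without WT replicate 1, 2 or 3 or 41-OX replicate 1 or 3 (adjusted p up to 0.076).

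**Figure D4:**
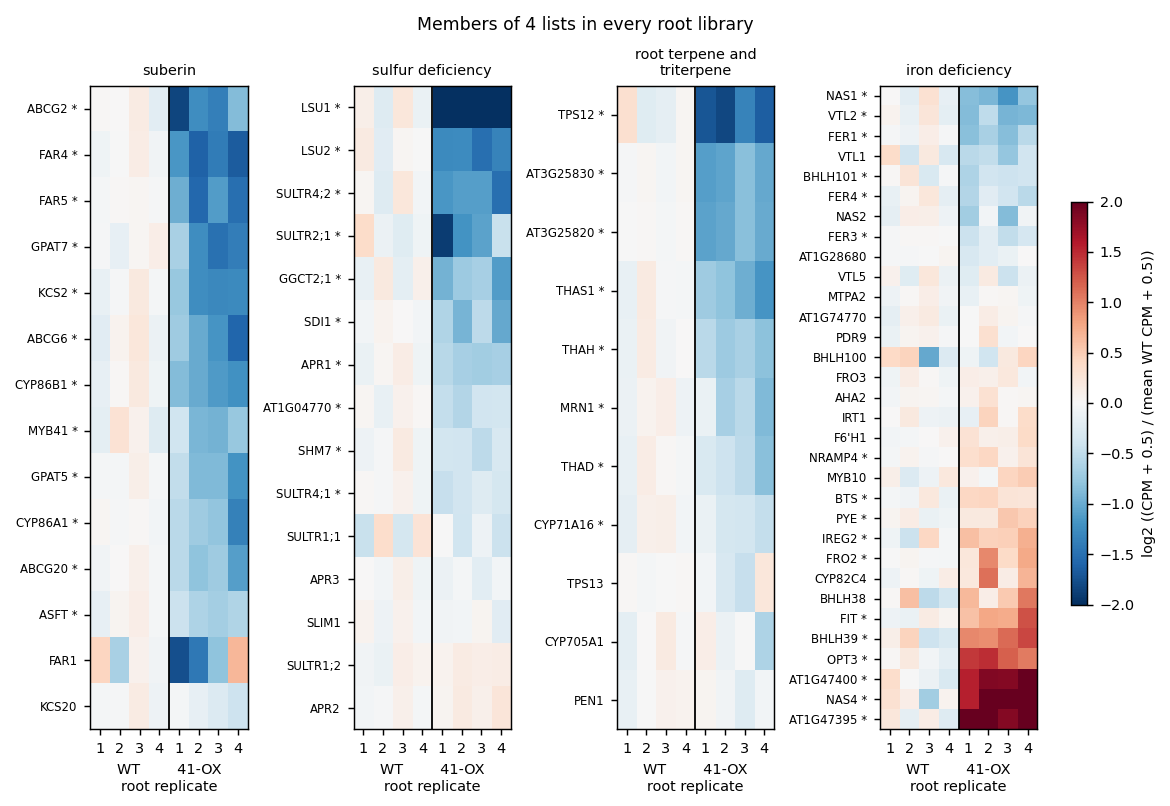
Members of the suberin, sulfur, terpene and iron lists in each root library, as log2 of (CPM + 0.5) over (mean WT CPM + 0.5), with blue below and red above the WT mean and colours capped at 2 in either direction. An asterisk marks adjusted p under 0.05. All 12 called suberin members and all 10 called sulfur members are blue across the 41-OX columns, and the iron list holds a blue block (NAS1, ferritins) and a red block (OPT3, NAS4, AT1G47395).

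The iron genes went both ways. Roots short of iron switch on uptake genes through the transcription factor FIT, while ferritins, which store iron, are turned down. Of 32 tested genes 11 rose and 6 fell, with 15 not passing, against 4.3% and 7.62% of all loci that rose and fell. Without 41-OX replicate 4 again 11 rose and 8 fell. FIT stood at 39.9, 39.1, 47.9 and 44.2 CPM in the 4 WT and 64.7, 73.4, 72.02 and 104 CPM in the 4 41-OX libraries. Each 41-OX root lay above each WT root, with replicate 4 highest (log2 change 0.87, SE 0.14, adjusted p = 0.00217, and log2 change 0.71 without replicate 4). BHLH39, the partner of FIT, stood at 16.5, 20.8, 11.2 and 12.1 CPM in the 4 WT and 29.9, 29.4, 33.96 and 38.9 CPM in the 4 41-OX libraries (log2 change 1.13, SE 0.18, adjusted p = 0.0022). FRO2, the ferric reductase of the root surface, rose from 25.2 to 26.9 CPM in WT to 30.2 to 50.7 CPM in 41-OX (log2 change 0.62, SE 0.14). IRT1, the main iron importer, stood at 82.4 to 102 CPM in WT and 79.5 to 122 CPM in 41-OX, where the groups overlapped, and did not pass (log2 change 0.19, SE 0.13, adjusted p = 0.416). The proton pump gene AHA2 (0.12) and BHLH38 (0.65) did not pass.

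The largest rises of the list were in genes of low level. NAS4, which makes the metal chelator nicotianamine, stood at 1.02, 0.8504, 0.257 and 0.783 CPM in the 4 WT and 3.09, 5.71, 4.57 and 6.23 CPM in the 4 41-OX libraries (log2 change 2.74, SE 0.34, adjusted p = 0.000159). AT1G47395 stood at 1.02, 0.638, 0.941 and 0.587 CPM in the 4 WT and 6.504, 4.84, 4.11 and 12.7 CPM in the 4 41-OX libraries, and its neighbour AT1G47400 at 1.39, 0.957, 0.855 and 0.685 CPM in the 4 WT and 3.82, 4.84, 4.76 and 9.86 CPM in the 4 41-OX libraries. Neither overlapped between groups (log2 changes 3.11, SE 0.39 and 2.56, SE 0.34). In both 41-OX replicate 4 was the highest, and without it the log2 changes were 2.67 and 2.18, the calls being kept. Both genes are also among the largest rises, which were picked for no overlap and a call without that library. AT1G47395 stood at 15.03 ± 6.35 CPM in WT shoots (SD, n = 3) and 34.4 ± 7.55 CPM in 41-OX shoots (SD, n = 4) and AT1G47400 at 14.3 ± 7.22 CPM in WT shoots (SD, n = 3) and 20.08 ± 7.67 CPM in 41-OX shoots (SD, n = 4), on the scale of a fit over both organs, and the part of shoot RNA in their root values was not tested. OPT3, which loads iron into the phloem, stood at 11.6, 13.2, 11.03 and 9.88 CPM in the 4 WT and 31.2, 32.7, 26.7 and 24.03 CPM in the 4 41-OX libraries (log2 change 1.33, SE 0.12, adjusted p = 1.73e-05).

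AT1G47395 and AT1G47400 lie side by side on chromosome 1, are alike in sequence and rose together, so the 300 bases before each annotated start are shown. Both were read from the RefSeq genome, plus strand, at TAIR10.1 chr1:17382698-17382997 and TAIR10.1 chr1:17385407-17385706. Capitals mark ACGTG, the core shared by many binding motifs of bHLH and bZIP factors, searched on both strands.
AT1G47395: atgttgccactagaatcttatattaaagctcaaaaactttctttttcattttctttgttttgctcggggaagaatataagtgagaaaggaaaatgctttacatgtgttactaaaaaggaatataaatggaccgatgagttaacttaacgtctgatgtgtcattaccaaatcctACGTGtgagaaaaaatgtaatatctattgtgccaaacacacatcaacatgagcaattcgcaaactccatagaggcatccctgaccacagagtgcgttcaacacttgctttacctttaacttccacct
AT1G47400: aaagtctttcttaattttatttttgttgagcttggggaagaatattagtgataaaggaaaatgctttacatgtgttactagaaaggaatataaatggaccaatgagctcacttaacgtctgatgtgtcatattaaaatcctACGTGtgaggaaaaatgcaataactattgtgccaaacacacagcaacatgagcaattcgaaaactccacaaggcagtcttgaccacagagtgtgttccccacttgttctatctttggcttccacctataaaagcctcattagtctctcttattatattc
An alignment of the whole windows matched 238 of 335 columns (71.0%), gaps counted as columns, and each window held ACGTG 1 time, within the same run of letters. The full G-box CACGTG, which contains this core, was in neither. Among the windows of the 11 iron genes that rose, 7 held ACGTG and 2 held CACGTG, and among all 27443 protein-coding genes of the nuclear chromosomes 25.6% held the first and 7.09% the second. The 7 include both genes shown here, whose windows are alike, so the windows are not all separate cases. Iron genes that did not rise were not counted. A match in these letters is not evidence that a factor binds there. The copies are close in sequence, so reads may be shared between them.

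The 3 called ferritin genes fell. FER1, the main ferritin gene, stood at 134, 127, 150.00 and 133 CPM in the 4 WT and 75.9, 86.5, 75.01 and 93.3 CPM in the 4 41-OX libraries, with no overlap (log2 change -0.72, SE 0.08, adjusted p = 7.62e-05). FER3 and the vacuolar iron transporter-like gene VTL2 had log2 changes of -0.37, SE 0.07 and -0.84, SE 0.15. NAS1, another nicotianamine synthase gene, moved against NAS4 and stood at 88.9, 75.9, 109 and 78.9 CPM in the 4 WT and 48.8, 46.4, 38.4 and 51.1 CPM in the 4 41-OX libraries (log2 change -0.93, SE 0.12, adjusted p = 0.000331). BTS (0.34, SE 0.08), PYE (0.36, SE 0.11), NRAMP4, a vacuolar exporter gene (0.28, SE 0.08), and the vacuolar metal transporter gene IREG2 (0.58, SE 0.15) rose, and FER4 (-0.44, SE 0.12) and BHLH101 (-0.47, SE 0.14) fell. These 6 calls and that of FRO2 were lost for BTS without WT replicate 1, 2 or 4 or 41-OX replicate 1 or 2 (adjusted p up to 0.0741), PYE without WT replicate 1, 3 or 4 or 41-OX replicate 3 (adjusted p up to 0.133), NRAMP4 without WT replicate 1, 2, 3 or 4 or 41-OX replicate 1 or 2 (adjusted p up to 0.0876), IREG2 without WT replicate 1, 2 or 4 or 41-OX replicate 1 or 2 (adjusted p up to 0.078), FER4 without WT replicate 2 or 3 or 41-OX replicate 1 or 3 (adjusted p up to 0.11), BHLH101 without WT replicate 1, 2 or 4 or 41-OX replicate 1, 2 or 3 (adjusted p up to 0.13) and FRO2 without WT replicate 3 (adjusted p up to 0.0519).

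Of 17 tested zinc and copper genes 4 rose and 1 fell, against 4.3% and 7.62% of all loci. ZIP3, a zinc transporter gene, stood at 45.03, 51.2, 51.1 and 55.3 CPM in the 4 WT and 102, 99.8, 96.1 and 88.9 CPM in the 4 41-OX libraries, with no overlap (log2 change 0.93, SE 0.08, adjusted p = 7.33e-06). FRO5, a copper reductase gene, rose from 7.12 to 8.72 CPM in WT to 14.6 to 17.00 CPM in 41-OX (log2 change 0.92, SE 0.12). The zinc pump gene HMA2 (0.58, SE 0.18) and the superoxide dismutase gene CSD2 (0.26, SE 0.08) rose and the copper regulator gene SPL7 fell (-0.27, SE 0.07), with calls lost for HMA2 without any 1 of 7 libraries (adjusted p up to 0.129), CSD2 without WT replicate 1, 2, 3 or 4 or 41-OX replicate 1 or 2 (adjusted p up to 0.129) and SPL7 without WT replicate 2, 3 or 4 or 41-OX replicate 1 or 2 (adjusted p up to 0.107).

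Some transporters for nitrogen and phosphate were higher. Of 21 nitrate and ammonium genes 3 rose and 18 did not pass, against 4.3% of all loci that rose. The 3 calls held whichever library was left out. NRT2.1, the high-affinity nitrate transporter, stood at 0.277, 0.531, 0.171 and 0.587 CPM in the 4 WT and 1.06, 2.23, 1.77 and 1.47 CPM in the 4 41-OX libraries (log2 change 2.04, SE 0.41, adjusted p = 0.0051). Its partner NRT3.1 stood at 24.5, 18.3, 24.7 and 22.6 CPM in the 4 WT and 43.1, 54.9, 40.6 and 48.9 CPM in the 4 41-OX libraries (log2 change 1.05, SE 0.12, adjusted p = 5.94e-05). The ammonium transporter gene AMT1;3 rose from 22.9 to 40.8 CPM in WT to 52.3 to 63.2 CPM in 41-OX (log2 change 0.86, SE 0.15). Without 41-OX replicate 4, 6 members of the list rose and 1 fell.

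In the phosphate list 4 of 18 tested members rose and 4 fell, against 4.3% and 7.62% of all loci. Without 41-OX replicate 4, 5 rose and 4 fell. The uptake transporter genes PHT1;1 (0.66, SE 0.07), PHT1;2 (0.52, SE 0.09) and PHT1;4 (0.48, SE 0.07) and PHF1, which helps them leave the endoplasmic reticulum (0.33, SE 0.08), rose, with PHT1;1 at 121 to 144 CPM in WT and 194 to 216 CPM in 41-OX. PHT1;1 and PHT1;2 are close copies, and reads may be split between them. The other 4 called members fell. NPC4, a phospholipase C, stood at 21.3, 17.2, 16.9 and 19.5 CPM in the 4 WT and 7.398, 5.95, 7.56 and 7.03 CPM in the 4 41-OX libraries (log2 change -1.42, SE 0.12, adjusted p = 1.04e-05). RNS1, a secreted ribonuclease, stood at 10.7, 13.5, 5.56 and 10.2 CPM in the 4 WT and 2.52, 2.85, 3.08 and 2.95 CPM in the 4 41-OX libraries (log2 change -1.804, SE 0.24, adjusted p = 0.000274). The acid phosphatase gene PAP17 had -0.73, SE 0.11 and the phosphate sensor gene SPX1 had -0.40, SE 0.10. The calls of PHF1 and SPX1 were lost for PHF1 without WT replicate 1 or 2 or 41-OX replicate 1 (adjusted p up to 0.0625) and SPX1 without WT replicate 1 or 4 or 41-OX replicate 1 (adjusted p up to 0.0566).

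Of 10 potassium genes 2 fell, against 7.62% of all loci, and 4 fell without 41-OX replicate 4, with AKT2 (-1.19) and CBL1 (-0.26) added. GORK, an outward potassium channel gene, fell from 66.3 to 78.1 CPM in WT to 36.04 to 43.8 CPM in 41-OX (log2 change -0.85, SE 0.08, adjusted p = 1.8e-05), and HAK5, a high-affinity importer gene, from 1.45 to 3.295 CPM in WT to 0.372 to 1.59 CPM in 41-OX (log2 change -1.33, SE 0.38), with its call lost for HAK5 without WT replicate 1, 2 or 4 or 41-OX replicate 1 or 2 (adjusted p up to 0.118). All 19 tested aquaporin genes had a positive log2 change (median 0.20). Of these 4 passed, against 4.3% of all loci that rose, and 8 passed without 41-OX replicate 4. TIP2;1 rose from 200.1 to 236 CPM in WT to 265 to 317 CPM in 41-OX (log2 change 0.44, SE 0.08) and TIP2;3 from 279 to 301 CPM in WT to 366 to 422 CPM in 41-OX (0.44, SE 0.07), both water channels of the vacuole. TIP2;2 (0.30, SE 0.08) and the plasma membrane channel gene PIP1;1 (0.28, SE 0.08) rose with calls lost for TIP2;2 without WT replicate 1, 2, 3 or 4 or 41-OX replicate 1 or 3 (adjusted p up to 0.0982) and PIP1;1 without WT replicate 1, 2 or 4 or 41-OX replicate 1 or 3 (adjusted p up to 0.11).

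The called auxin genes were mostly higher. Of 32 tested members 8 rose and 1 fell, with 23 not passing, against 4.3% and 7.62% of all loci that rose and fell. Without 41-OX replicate 4, 9 rose and 2 fell. GH3.2, an enzyme that conjugates auxin to amino acids and is induced by auxin, stood at 41.8, 31.3, 45.7 and 40.8 CPM in the 4 WT and 89.5, 90.9, 74.6 and 71.2 CPM in the 4 41-OX libraries (log2 change 1.03, SE 0.12, adjusted p = 0.000117). The efflux carrier genes PIN2 (0.41, SE 0.09), PIN3 (0.34, SE 0.08) and PIN7 (0.35, SE 0.07), the influx carrier gene AUX1 (0.22, SE 0.06) and LBD29, a regulator of lateral root initiation (0.64, SE 0.15), rose. GH3.3 (1.44, SE 0.36) and IAA19 (0.42, SE 0.12) rose and AT1G14130 fell (-0.46, SE 0.11). The calls were lost for PIN3 without WT replicate 2 or 4 (adjusted p up to 0.0573), AUX1 without WT replicate 1, 2 or 4 or 41-OX replicate 1, 2 or 3 (adjusted p up to 0.126), GH3.3 without WT replicate 2, 3 or 4 (adjusted p up to 0.0752), IAA19 without WT replicate 1, 3 or 4 or 41-OX replicate 1 or 3 (adjusted p up to 0.124) and AT1G14130 without WT replicate 1 (adjusted p up to 0.0528).

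Cytokinin genes went both ways, with 3 of 26 higher and 4 lower, against 4.3% and 7.62% of all loci. Without 41-OX replicate 4, 5 rose and 5 fell. The response regulator gene ARR16 stood at 6.93, 11.4, 9.24 and 10.2 CPM in the 4 WT and 3.41, 2.23, 4.38 and 4.08 CPM in the 4 41-OX libraries (log2 change -1.403, SE 0.21, adjusted p = 0.000684). CKX4, a cytokinin-degrading oxidase, stood at 8.04, 6.803, 11.1 and 6.56 CPM in the 4 WT and 2.602, 2.48, 2.71 and 3.63 CPM in the 4 41-OX libraries (log2 change -1.51, SE 0.21, adjusted p = 0.000324). IPT3, a synthesis enzyme gene induced by nitrate, rose from 2.55 to 5.27 CPM in WT to 6.23 to 7.07 CPM in 41-OX (log2 change 0.92, SE 0.22). The regulator gene ARR5 (-0.31, SE 0.09) and the receptor gene AHK4 (-0.24, SE 0.06) fell, and CKX3 (0.66, SE 0.20) and the exporter gene ABCG14 (0.26, SE 0.07) rose. Those calls were lost for IPT3 without WT replicate 4 (adjusted p up to 0.0524), ARR5 without any 1 of 7 libraries (adjusted p up to 0.0991), AHK4 without WT replicate 2, 3 or 4 or 41-OX replicate 3 (adjusted p up to 0.1), CKX3 without any 1 of 7 libraries (adjusted p up to 0.133) and ABCG14 without any 1 of 7 libraries (adjusted p up to 0.118).

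Of 22 ethylene genes 2 rose and 4 fell, against 4.3% and 7.62% of all loci, and all 6 calls held whichever library was left out. EBF1 and EBF2, F-box genes that restrain ethylene signalling and are induced by ethylene, fell from 156 to 177 CPM in WT to 84.4 to 126 CPM in 41-OX (-0.61, SE 0.10) and from 159.7 to 185 CPM in WT to 122 to 135 CPM in 41-OX (-0.43, SE 0.07). The synthesis enzyme gene ACS6 (-0.73, SE 0.11) and ERF5 (-0.47, SE 0.09) fell, whereas ERF6 (0.76, SE 0.12) and ORA59 (1.65, SE 0.39) rose.

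The called jasmonate genes were mostly lower, with 7 of 22 down and 1 up, against 7.62% and 4.3% of all loci. VSP1, a storage protein gene induced by jasmonate, stood at 73.5, 80.5, 64.1 and 69.98 CPM in the 4 WT and 31.1, 30.4, 28.9 and 26.9 CPM in the 4 41-OX libraries, with no overlap (log2 change -1.29, SE 0.08, adjusted p = 2.06e-06). VSP2 (-1.09, SE 0.13), the repressor gene JAZ1 (-0.55, SE 0.09) and the zinc finger gene ZAT10 (-0.81, SE 0.14) fell. JAZ7 (-1.404, SE 0.39), the synthesis gene AOC2 (-0.88, SE 0.22) and WRKY33 (-0.35, SE 0.10) fell and AOC3 rose (0.23, SE 0.07), with calls lost for JAZ7 without WT replicate 1, 2, 3 or 4 or 41-OX replicate 2 or 3 (adjusted p up to 0.102), AOC2 without WT replicate 1, 2 or 3 or 41-OX replicate 1 or 3 (adjusted p up to 0.0722), WRKY33 without WT replicate 2 or 3 or 41-OX replicate 1, 2 or 3 (adjusted p up to 0.119) and AOC3 without any 1 of 7 libraries (adjusted p up to 0.135). Of 8 tested salicylate and pipecolate genes 3 rose and 2 fell, against 4.3% and 7.62% of all loci. ALD1 and FMO1, enzymes of the pipecolate route, rose from 4.68 to 12.7 CPM in WT to 18.4 to 20.5 CPM in 41-OX (1.25, SE 0.25) and from 1.86 to 2.74 CPM in WT to 3.72 to 8.78 CPM in 41-OX (1.53, SE 0.27). WRKY54 rose (0.84, SE 0.15), while WRKY70 (-0.59, SE 0.13) and the salicylate synthesis gene ICS1 (-0.47, SE 0.11, lost without WT replicate 4 at adjusted p = 0.0517) fell.

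Of 18 brassinosteroid and gibberellin genes 4 rose and 2 fell, against 4.3% and 7.62% of all loci. Without 41-OX replicate 4, 6 rose and 3 fell, against 7.41% and 10.1%. The gibberellin synthesis gene GA3OX1 rose from 7.44 to 12.9 CPM in WT to 12.4 to 21.8 CPM in 41-OX (0.84, SE 0.20) and GA20OX3 by 1.18 (SE 0.30), while GA20OX2 fell (-0.43, SE 0.12). SOB7, which inactivates brassinosteroids, rose (0.31, SE 0.07), the synthesis gene DET2 fell (-0.51, SE 0.12) and CPD rose (0.32, SE 0.09). The calls were lost for GA3OX1 without WT replicate 1 or 41-OX replicate 1, 2 or 3 (adjusted p up to 0.0615), GA20OX3 without WT replicate 1 or 3 or 41-OX replicate 1 or 2 (adjusted p up to 0.0831), GA20OX2 without WT replicate 2, 3 or 4 or 41-OX replicate 2 or 3 (adjusted p up to 0.131) and CPD without WT replicate 1, 2, 3 or 4 or 41-OX replicate 2 (adjusted p up to 0.126).

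Of 26 tested expansin and XTH genes, which loosen or remodel walls, 5 rose and 3 fell, against 4.3% and 7.62% of all loci, and 6 rose and 3 fell without 41-OX replicate 4. EXPB1 stood at 34.9, 36.6, 38.1 and 38.5 CPM in the 4 WT and 64.4, 74.9, 61.4 and 47.1 CPM in the 4 41-OX libraries (log2 change 0.74, SE 0.11, adjusted p = 0.001). EXPA8 (0.86, SE 0.12), EXPA14 (0.65, SE 0.10) and EXPA17 (0.48, SE 0.09) rose as well. XTH24, a wall-modifying enzyme gene, stood at 147, 148, 157 and 154 CPM in the 4 WT and 73.00, 64.7, 65.8 and 89.3 CPM in the 4 41-OX libraries (log2 change -1.05, SE 0.09, adjusted p = 1.03e-05), and EXLB1 fell too (-0.66, SE 0.12). XTH4 rose (0.30, SE 0.09) and XTH31 fell (-0.27, SE 0.08), with calls lost for XTH4 without WT replicate 1, 2, 3 or 4 or 41-OX replicate 2 (adjusted p up to 0.12) and XTH31 without WT replicate 1, 2 or 3 or 41-OX replicate 2 or 3 (adjusted p up to 0.108).

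In the clock list 1 of 13 rose and 4 fell, against 4.3% and 7.62% of all loci. Without 41-OX replicate 4, 1 rose and 6 fell, against 7.41% and 10.1%. The morning genes CCA1 (-0.61, SE 0.16), LHY (-0.68, SE 0.17), RVE8 (-0.71, SE 0.14) and LNK1 (-0.68, SE 0.10) fell and the evening gene LUX rose (0.38, SE 0.07). Calls were lost for CCA1 without any 1 of 7 libraries (adjusted p up to 0.074) and LHY without WT replicate 2 or 4 or 41-OX replicate 3 (adjusted p up to 0.0673), and the time of harvest of each library is not given in the sources used here. Of 8 tested heat and cold genes 3 fell, against 7.62% of all loci. They were KIN1 (-0.58, SE 0.11), MBF1C (-0.62, SE 0.15) and HSP18.2 (-0.62, SE 0.19). The calls were lost for MBF1C without WT replicate 3 or 41-OX replicate 1 or 3 (adjusted p up to 0.0721) and HSP18.2 without any 1 of 7 libraries (adjusted p up to 0.146). None of 8 hypoxia genes passed, against 11.9% of all loci.

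Of 7 tested genes of flowering repressors and their targets 3 fell, against 7.62% of all loci. These MADS-box genes hold back the floral transition in shoots and are also expressed in roots. MAF4 stood at 12.1, 9.04, 11.5 and 11.9 CPM in the 4 WT and 0.976, 2.36, 2.33 and 2.72 CPM in the 4 41-OX libraries (log2 change -2.44, SE 0.24, adjusted p = 2.94e-05). MAF5, its neighbour on chromosome 5, stood at 5.46, 4.57, 5.22 and 5.68 CPM in the 4 WT and 0.976, 0.744, 1.21 and 1.02 CPM in the 4 41-OX libraries (log2 change -2.38, SE 0.21, adjusted p = 1.22e-05). FLC stood at 7.49, 3.83, 4.96 and 5.38 CPM in the 4 WT and 0.813, 1.12, 2.24 and 2.83 CPM in the 4 41-OX libraries (log2 change -1.64, SE 0.34, adjusted p = 0.00803). None of the 3 overlapped between groups and no left-out library ended a call. MAF4 and MAF5 are close copies that lie side by side, so reads may be shared. MAF1 (-0.17), MAF2 (-0.08), MAF3 (-0.10) and SOC1, a floral activator gene (-0.64), did not pass, and SOC1 passed without 41-OX replicate 4 (log2 change -0.86, adjusted p = 0.00162).

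Among called genes outside these lists, the largest rises included a protease gene, a bHLH gene and defensin-like genes. The largest rises were picked among genes with no overlap between groups and a call without 41-OX replicate 4. Neither trait is therefore separate support for them. AT5G48430, an aspartyl protease gene (TAIR10.1 chr5:19627634-19629167), stood at 8.41, 7.55, 7.098 and 11.8 CPM in the 4 WT and 33.7, 48.99, 49.9 and 66.98 CPM in the 4 41-OX libraries (log2 change 2.51, SE 0.24, adjusted p = 0.000196). AT2G14247, of unknown product (TAIR10.1 chr2:6034282-6035375), stood at 1.39, 0.8504, 1.28 and 0.979 CPM in the 4 WT and 10.6, 7.69, 6.72 and 14.7 CPM in the 4 41-OX libraries (log2 change 3.12, SE 0.28, adjusted p = 1.25e-05). The bHLH gene AT2G43140 stood at 0.638 to 1.76 CPM in WT and 4.796 to 8.12 CPM in 41-OX (log2 change 2.29, SE 0.28). The carbonic anhydrase gene ACA2 had 2.26, SE 0.34 and the leucine-rich repeat kinase genes AT3G46400 and MEE39 had 2.25, SE 0.23 and 2.24, SE 0.40. The defensin-like genes AT1G13609 (3.33, SE 0.82) and AT1G34047 (2.301, SE 0.63) were highest in 41-OX replicate 4, at 10.1 and 9.41 CPM against 1.61 to 4.29 and 1.68 to 2.48 CPM in the other 41-OX roots. Without that library their log2 changes were 2.54 and 1.42 with adjusted p = 0.00304 and 0.0059. With it kept, the calls were lost for AT1G13609 without WT replicate 1, 2, 3 or 4 or 41-OX replicate 3 (adjusted p up to 0.102) and AT1G34047 without WT replicate 1, 2, 3 or 4 or 41-OX replicate 2 (adjusted p up to 0.12). On the scale of a fit over both organs AT1G13609 stood at 59.2 ± 14.5 CPM in WT shoots (SD, n = 3) and 114 ± 22.2 CPM in 41-OX shoots (SD, n = 4), far above its root levels, and its root values were highest in replicates 3 and 4, the 41-OX roots with most shoot-specific RNA. AT2G14247, also highest in replicate 4, stood at 29.2 ± 8.21 CPM in WT shoots (SD, n = 3) and 43.8 ± 6.53 CPM in 41-OX shoots (SD, n = 4). AT1G34047 stood lower in shoots than in roots, at 0.0883 ± 0.153 CPM in WT shoots (SD, n = 3) and 0.351 ± 0.214 CPM in 41-OX shoots (SD, n = 4). The part of shoot RNA in the rises was not tested.

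The largest falls included regulators and transporters. They were picked by the same rule, as were LSU1, MAF4 and MAF5 above, so the lack of overlap is no separate support. ALMT1, the malate channel that detoxifies aluminium (TAIR10.1 chr1:2658602-2661310), stood at 28.5, 32.1, 32.7 and 34.7 CPM in the 4 WT and 8.29, 4.84, 7.28 and 5.100 CPM in the 4 41-OX libraries. Every 41-OX root lay well below every WT root (log2 change -2.305, SE 0.16, adjusted p = 2.27e-06). The transporter gene ABCA8 (TAIR10.1 chr3:17629530-17633942) stood at 37.7, 19.7, 28.9 and 26.8 CPM in the 4 WT and 4.88, 4.59, 6.06 and 5.78 CPM in the 4 41-OX libraries (log2 change -2.41, SE 0.19, adjusted p = 7.58e-06). MYB69, a transcription factor gene, stood at 7.49, 3.08, 5.56 and 3.72 CPM in the 4 WT and 0.488, 0.496, 0.746 and 0.567 CPM in the 4 41-OX libraries (log2 change -3.09, SE 0.34, adjusted p = 5.42e-05). The glucosyltransferase gene UGT71B8 (-3.07, SE 0.27), WRKY30 (-2.75, SE 0.52), AT2G40390 (-2.699, SE 0.23), AT4G14060, of the polyketide cyclase family (-3.22, SE 0.51), and AT1G22810, encoding a DNA-binding protein (-2.39, SE 0.45), also fell. No left-out library ended any of these 8 calls. The WT values of WRKY30 ran from 3.34 to 13.6 CPM and those of AT1G22810 from 2.404 to 8.93 CPM.

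On chromosome 2, 3 loci were present in the counts of 1 genotype and at or near 0 in the other. The pseudogene AT2G06590 (TAIR10.1 chr2:2633129-2635227) had 0 counts in all 4 WT roots and 169 in the 41-OX roots (45, 26, 60 and 38), at least 58.9-fold higher when the WT group is set to a floor of 3 counts in sum. The pseudogene AT2G06670 (TAIR10.1 chr2:2661493-2663643) had 0 and 79 counts (18, 17, 21 and 23), at least 27.5-fold higher. The protein-coding gene AT2G06845 (TAIR10.1 chr2:2753443-2756008), annotated as related to beta-galactosidase, went the other way. It stood at 7.03, 5.95, 8.47 and 7.14 CPM in the 4 WT and 0, 0, 0 and 0.227 CPM in the 4 41-OX libraries (log2 change -6.84, SE 0.48, adjusted p = 2.43e-06). No other locus between these positions was tested.

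The pxy roots share the WT roots as their control, so their values are only set beside those above, as means over 3 libraries scaled together with the WT and 41-OX roots. The library labelled pxy root replicate 2 is left out because its shoot-specific loci stood at 93.7% of the shoot mean. CLE41 stood at 7.64 ± 1.85 CPM (SD, n = 3) in pxy roots and WOX4 at 0.809 ± 0.325 CPM (SD, n = 3). LSU1 stood at 17.02 ± 7.99 CPM (SD, n = 3), ALMT1 at 44.3 ± 9.71 CPM (SD, n = 3), ABCA8 at 25.1 ± 3.099 CPM (SD, n = 3) and MAF4 at 11.3 ± 2.24 CPM (SD, n = 3). NAS4 stood at 0.594 ± 0.308 CPM (SD, n = 3) and AT1G47395 at 0.899 ± 0.265 CPM (SD, n = 3). AT2G06845 stood at 0.198 ± 0.344 CPM (SD, n = 3) in pxy roots, near 0 as in 41-OX roots. AT1G22810 stood at 1.18 ± 0.967 CPM (SD, n = 3) and WRKY30 at 2.55 ± 0.382 CPM (SD, n = 3), where the ranges in pxy were 0.595 to 2.296 and 2.26 to 2.98 CPM.

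Whether the change in roots differed from that in shoots was tested in 1 fit of the WT and 41-OX libraries of both organs without WT shoot replicate 2, which held 167131 counts. It differed at 3816 of 21295 loci (17.9%). The shoot libraries of the genotypes differed in organ-specific loci, and how much of this comes from the choice of these loci was not tested. Root-specific loci had to lie 50-fold lower in WT and pxy shoots, so low values in WT shoots follow from the choice. Shoot-specific loci are scaled to the mean of WT and pxy shoots, and no 41-OX library took part. Root-specific loci stood at 5.44% to 6.78% of their root mean in the 4 41-OX shoots and at 0.862% to 1.402% in the 3 WT shoots, and shoot-specific loci at 81.8% to 88.0% and 100.7% to 103% of their shoot mean. The part of this in the differences below was not tested. In that fit levels are scaled over both organs. CLE41 had a log2 change of 1.68 in roots and 0.60 in shoots, a difference of 1.08 (SE 0.16, adjusted p = 0.000103). Its mean in 41-OX was 30.8 ± 3.38 CPM in roots and 29.2 ± 1.14 CPM in shoots (SD, n = 4 each), and in WT 9.64 ± 0.855 CPM (n = 4) and 19.2 ± 3.25 CPM (n = 3). PXY had -0.37 in roots and 0.74 in shoots (difference -1.11, SE 0.21, adjusted p = 0.000784). WOX4 had -1.07 in roots and -0.01 in shoots (difference -1.06, SE 0.29, adjusted p = 0.0151), and this was lost without WT root replicate 3 (adjusted p = 0.0519).

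The test was also read for the 3 largest rises and 3 largest falls in roots among called genes with a mean log2 CPM of at least 1, no overlap and a call without 41-OX replicate 4, and 2 of these 6 passed. They were picked from the same root libraries, which favours a difference from shoots. LSU1 had -3.11 in roots and -0.65 in shoots (difference -2.45, SE 0.34, adjusted p = 4.07e-05). AT2G14247 had 3.11 in roots and 0.59 in shoots (difference 2.52, SE 0.41, adjusted p = 0.000429). AT1G13609 (adjusted p = 0.13), AT4G14060 (0.0969) and AT2G06845 (0.305) did not pass, and AT2G06590, with 0 counts in the WT libraries of both organs, gave no usable difference.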

How the data were processed

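Per the submitters' processing notes the authors used CASAVA, TopHat2 and HTSeq with the genome build TAIR10, versions not given in the sources used here, and libraries followed, per the labels' protocols, a published high-throughput method. The deposited file holds raw counts per locus, with 1 column per sample. It lists 0 reads not aligned uniquely, and whether such reads were removed before counting, and whether strand was used, is not given in the sources used here. Counts of 33602 loci were used and HTSeq's summary lines left out of totals (no feature 1.82% to 2.49% and ambiguous 1.80% to 2.08% of root reads). Gene names and positions come from RefSeq's TAIR10.1 annotation, matched by locus code for 32835 loci.

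The 8 root libraries were fitted in R 4.3.3 with edgeR 4.0.16, using TMM factors, filterByExpr and the robust quasi-likelihood F-test (two-sided, Benjamini-Hochberg over all loci tested). The fit was tested on simulated data. SE is the absolute log2 change over the square root of F. Lists and members were chosen with earlier results of these data known, so lists are described by counts and medians with no set test. Organ-specific loci reached 20 CPM in 1 organ and lay 50-fold lower in the other, over WT and pxy libraries without WT shoot replicate 2 and the library labelled pxy root replicate 2. The genes named were CLE41, PXY and WOX4, the 12 largest rises and falls among calls whose mean log2 CPM reached 1, with no overlap and a call without 41-OX replicate 4, loci with 0 counts in 1 group, and up to 4 called members per list. Further list members were named after their values were seen. Depth limits low loci, and a floor of 3 counts covers counting error only. Alternatives were DESeq2 1.42.0, DESeq2 size factors, limits on low counts, a fold threshold, other sets of libraries, a replicate block and leaving out each library.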

Additional observations from a re-analysis of the deposited data

Results flagged for a closer look

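Within a group of 4 root libraries, 14 of 242 sets of values had 1 library far from the other 3 by Dixon's criterion, and chance alone gives about 1 in 20. Of the 14, 6 lay in 41-OX replicate 4. It stood alone high for the level of shoot-specific loci, at 11.4% of the shoot mean, and for the photosynthetic list, at 0.706% of counts. It was also alone high for AT1G47400 at 9.86 CPM, the defensin-like gene AT1G34047 at 9.41 CPM, the kinase gene MEE39 at 5.67 CPM and AT2G06845 at 0.227 CPM, where the other 3 41-OX roots had 0. With those at 0, any count of AT2G06845 in replicate 4 would have met the criterion. In 41-OX shoots AT1G47400 had a mean of 20.08 CPM, AT1G34047 of 0.351 CPM and MEE39 of 0.9697 CPM, and AT2G06845 had 0.

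Other libraries stood alone at single genes. In 41-OX roots replicate 2 was low for WOX4, at 0.744 CPM. Replicate 1 was high for AT2G40390 at 1.46 CPM and for KCS2 at 36.01 CPM, and low for WRKY54 at 11.95 CPM, and replicate 3 was low for LUX at 87.2 CPM. In WT roots replicate 3 was high for IGMT1 at 233 CPM and WRKY70 at 22.8 CPM, and replicate 1 was low for FRO5 at 7.12 CPM.

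Of 9 genes read, 5 changed differently in roots and shoots by a test of the difference itself, which 17.9% of all loci passed. Apart from CLE41, PXY and WOX4, these genes were picked for the largest changes in the same root libraries. That choice favours a difference from shoots, so 5 of 9 sets no contrast with 17.9%. The differences, roots minus shoots on the log2 scale, were 1.08 for CLE41, -1.11 for PXY, -1.06 for WOX4, 2.52 for AT2G14247 and -2.45 for LSU1. PXY had 0.74 in shoots and -0.37 in roots, and WOX4 had -0.01 and -1.07. The 41-OX shoots held more of the root-specific loci than the WT shoots, which had a part in choosing these loci. The part of this in the differences was not tested.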

How the results depend on the processing

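The count of 2382 changed loci stayed within 1.5 times with DESeq2 size factors (2374), without the low-count filter (2281), with a stricter limit of 10 counts (2404) and by the DESeq2 Wald test (2734, 1143 up and 1591 down). It was 54 against a log2 fold threshold of 1, which is stricter by construction. Among the 6896 tested loci within 1.5-fold between organs, 463 were called, against 2382 of 19989 over all loci. These 463 come from the same fit, with p-values adjusted over the 6896 loci alone. Adding the pxy roots as labelled gave 137 (14 up, 123 down), and adding only 3 of them, without the library labelled pxy root replicate 2, gave 1332 (389 up, 943 down). Leaving out 1 library gave 1482 (without WT replicate 3) to 3539 (without 41-OX replicate 4), with 1547 without WT replicate 4. Over those settings CLE41 kept its call, and no result reversed. WOX4 lost its call against the fold threshold (log2 change -1.07, adjusted p = 1) and with the 12 root libraries (-1.06, adjusted p = 1.00), and ran from -1.18 to -0.95 over the left-out libraries. PXY ran from -0.48 to -0.26. With the 12 root libraries 22 of 113 named genes kept their call and with 11 libraries 92 of 114. The root-minus-shoot count of 3816 was 437 with 23 libraries of 6 groups and 3159 to 4003 over left-out libraries.

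With the replicate number as a block, 2268 loci were called, of which 2065 were also called without it. The labels do not state whether the replicate numbers pair the libraries. The deviations of same-numbered libraries correlated at -0.45, 0.34, -0.11 and 0.07 over 19989 loci. So few values cannot decide it, and differences in shoot RNA enter them. The best correlate of 41-OX replicate 4 was WT replicate 1 (0.55), the WT root with the highest level of shoot-specific loci (2.07% of the shoot mean).

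Depth limits loci of few counts, such as WOX4 and the 2 pseudogenes on chromosome 2, and replicates of unknown pooling limit all p-values.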

Other observations

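Some transcripts counted on the mitochondrial genome were lower in 41-OX roots. Of 35 tested mitochondrial loci 16 fell, 1 rose and 18 did not pass, against 7.62% and 4.3% of all loci that fell and rose, with a median log2 change of -1.22, and without 41-OX replicate 4 16 fell and 2 rose (median -1.17). ATMG00580 stood at 5.82, 4.36, 6.24 and 3.23 CPM in WT and 1.71, 1.98, 1.31 and 1.25 CPM in 41-OX (log2 change -1.66, SE 0.26, adjusted p = 0.000862). ATMG00640 stood at 4.900, 2.66, 5.47 and 2.54 CPM in WT and 1.06, 0.744, 1.399 and 0.567 CPM in 41-OX, again with no overlap (log2 change -2.01, SE 0.34, adjusted p = 0.00163). ATMG00980 went the other way, at 1.39, 2.87, 2.48 and 2.06 CPM in WT and 6.02, 5.21, 4.198 and 6.01 CPM in 41-OX (log2 change 1.29, SE 0.23, adjusted p = 0.00261). Of 80 tested chloroplast loci 1 rose and 1 fell, against 4.3% and 7.62% of all loci. Without 41-OX replicate 4, 1 rose and 8 fell, against 7.41% and 10.1%. The most abundant mitochondrial loci, ATMG00020 and ATMG01390, did not pass, with log2 changes of -0.27 and -0.25. The shares of all mitochondrial loci together overlapped between groups, at 0.124% to 0.158% of counts in WT roots and 0.0844% to 0.132% in 41-OX roots. How organelle RNA passed through library preparation, and whether nuclear copies of mitochondrial sequence shared reads, was not tested. The 16 loci that fell were each higher in WT replicates 1 and 3 than in WT replicates 2 and 4. They share this library pattern, so the 16 calls are not separate results, and most of these loci stood at few CPM. The mitochondrial loci were looked at after their values were seen.

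Of the 157 loci specific to roots over shoots, all tested, 31 rose and 10 fell, against 4.3% and 7.62% of all loci, and 44 rose and 11 fell without 41-OX replicate 4, with median log2 changes of 0.08 and 0.13.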
